A study of Homo sapiens with 6 samples.

Results

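Chemokines, interleukins and the NF-kB genes that share a signalling route with them were examined in TFK1 cells, a human cholangiocarcinoma (bile duct cancer) cell line. The members were the genes whose symbols named a CXC, CC or CX3C chemokine, an interleukin, an NF-kB subunit or an IkB-type inhibitor, together with TNF, TNFAIP2, TNFAIP3, LIF, CSF1, CSF2, CSF3, ICAM1 and BIRC3. The rule used symbols alone, but it was set with earlier results of these data known. They numbered 67 of the 23569 genes listed. Bulk RNA-seq was compared between the oeNC group, TFK1 cells carrying a negative control construct (n = 3 libraries), and the oeSTUB1 group, TFK1 cells overexpressing STUB1 (n = 3). Neither group received a further treatment. STUB1 is an E3 ubiquitin ligase. The comparison asked which transcripts differed when STUB1 was overexpressed. The study made its overexpressing cells with a lentivirus followed by puromycin selection, so each group may be 1 selected population, and STUB1 dose and population cannot be told apart. Nothing in the sources said that the 3 libraries of a group came from separate cultures, so p-values measure only the spread between these libraries, which may be technical.

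NF-kB is a family of dimeric transcription factors built from RELA, RELB, REL, NFKB1 and NFKB2. In resting cells the dimers are held in the cytoplasm by inhibitor proteins such as IkB-alpha, the product of NFKBIA, and signals from TNF, interleukin-1 or Toll-like receptors release them into the nucleus. Many chemokine and cytokine genes carry NF-kB sites near their start, as do genes for inhibitors of the same route, among them NFKBIA and TNFAIP3. In epithelial tumours the secreted chemokines are known for drawing neutrophils and monocytes to the tissue. These libraries came from cultured cancer cells alone, so they report what the tumour cells transcribe.

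The deposited values were FPKM, fragments scaled by gene length and by the total of the library, which allows levels of different genes to be compared. The FPKM steps gave back whole fragments for all 23569 genes, and the totals so recovered lay between 33106564 and 36744521 per library. STUB1, the check of the labels, measured 32.9, 33.0 and 30.9 FPKM in oeNC replicates 1 to 3 and 61.4, 75.0 and 61.9 FPKM in oeSTUB1. The groups did not overlap, with a log2 fold change of 1.03 (SE 0.10, adjusted p = 0.000642, limma). The table does not separate the transgene from the resident gene, and 42.4% of the exonic bases of STUB1 also lie in JMJD8 on the opposite strand. Summed epithelial markers measured 7419 to 7996 FPKM in oeNC and 4724 to 6263 FPKM in oeSTUB1, most of it KRT8 and KRT18. The biliary keratin KRT19 was listed at only 0.374 to 0.529 FPKM in oeNC and at 2.51 to 3.41 FPKM in oeSTUB1. All 7 epithelial markers were tested, with 4 called lower and KRT19 alone called higher. Their median log2 fold change was -0.57. Those called lower were KRT8, KRT18, EPCAM (log2 fold change -1.13, adjusted p = 0.0104, limma) and CDH1 (-1.09, adjusted p = 0.00545). KRT7 and SOX9 were not called. Among the markers of other cells, 4 of 11 leukocyte, 5 of 7 fibroblast and 4 of 5 endothelial genes had a mean under 0.1 FPKM. The summed leukocyte list measured 33.6 to 37.1 FPKM in oeNC and 28.0 to 28.8 in oeSTUB1, the fibroblast list 1.28 to 2.33 and 2.12 to 4.03 FPKM, and the endothelial list 0.0713 to 0.0973 and 0.0974 to 0.256 FPKM. Most of the leukocyte sum was CD68, at 26.8 to 27.7 FPKM in oeNC and 19.1 to 19.4 in oeSTUB1 (called lower, adjusted p = 0.00303). The other 6 tested leukocyte markers were not called, and 5 of the 7 tested had a positive log2 fold change, with a median of 0.48. The part of these lists in the results below was not tested.

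Several members carried an NF-kB motif in nearly the same place, and the sequences around it are shown because CXCL6, almost silent here, shares its letters with chemokines that were higher in oeSTUB1. RefSeq promoter windows (GRCh38.p14, 250 bases before to 50 bases after each annotated start) were matched for 50 of the 67 members and searched on both strands for the 10-letter NF-kB consensus, for GGAATTTCC, the core shared by several chemokine sites, and for TGANTCA, the AP-1 motif. A GGAATTTCC match often lies inside a consensus match. The lines below are a selection of the windows with a match. Among those not shown, matches began 239 and 223 bases before a start in NFKBIZ and 186 in ICAM1. They began 47 bases before it in REL and 28 in NFKBIB. CXCL10 and CXCL11, below the filter, also held GGAATTTCC and are not shown. Each line gives 30 bases, 5′ to 3′ on the gene's strand, with the motif match in capitals. TNFAIP3 also held another match, 67 to 58 bases before its start, whose last bases open its line in lower case.
CXCL1 (chr4:73869305-73869334, plus strand): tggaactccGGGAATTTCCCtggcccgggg
CXCL2 (chr4:74099253-74099282, minus strand): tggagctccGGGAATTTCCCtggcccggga
CXCL3 (chr4:74038748-74038777, minus strand): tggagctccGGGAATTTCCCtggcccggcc
CXCL5 (chr4:73998748-73998777, minus strand): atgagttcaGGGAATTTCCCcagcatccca
CXCL6 (chr4:73836579-73836608, plus strand): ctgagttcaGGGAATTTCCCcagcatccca
CXCL8 (chr4:73740468-73740497, plus strand): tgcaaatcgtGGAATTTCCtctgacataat
IL32 (chr16:3065295-3065324, plus strand): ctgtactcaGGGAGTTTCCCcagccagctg
CCL20 (chr2:227813753-227813782, plus strand): tgatcaatggGGAAAACCCCatgtggcaac
IL6 (chr7:22727117-22727146, plus strand): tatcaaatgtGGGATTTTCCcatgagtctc
TNFAIP3 (chr6:137867194-137867223, plus strand): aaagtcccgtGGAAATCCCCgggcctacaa
NFKB1 (chr4:102501300-102501329, plus strand): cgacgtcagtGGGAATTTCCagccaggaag
NFKBIA (chr14:35404811-35404840, minus strand): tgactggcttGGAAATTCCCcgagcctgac

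The matches of CXCL1 and CXCL3 began 79 bases before the annotated start, that of CXCL2 78 bases before it, and those of CXCL5 and CXCL8 91 bases before it. CXCL5 and CXCL6 had the same capitals and the same bases after them, although CXCL6 was almost silent in these cells. NFKB1 and NFKBIA held matches as well, and neither passed the test in the comparison below. One or both NF-kB motifs were found in 11 of the 14 members that were higher in oeSTUB1 and had a window (78.6%), in 8 of the 11 other tested members (72.7%) and in 4 of the 25 members below the expression filter (16%). The share was 9.07% over the 11980 tested genes with a window and 7.34% over all 27305 RefSeq genes with one. GGAATTTCC alone stood in 7 of the 14 higher members (50%) and in 4 of the 11 other tested members (36.4%). It stood in 3 of the 25 members below the filter (12%) and in 0.609% of the tested genes. It was searched for as a core of chemokine sites, so its share among the members is partly set by that choice. The AP-1 motif stood in 2 of the 14 higher members (14.3%), IL11 and CXCL8, in 3 of the 11 other tested members (27.3%), in 8 of the 25 members below the filter (32%) and in 7.10% of the tested genes. A match describes these letters only and says nothing of binding.

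**Figure D1:**
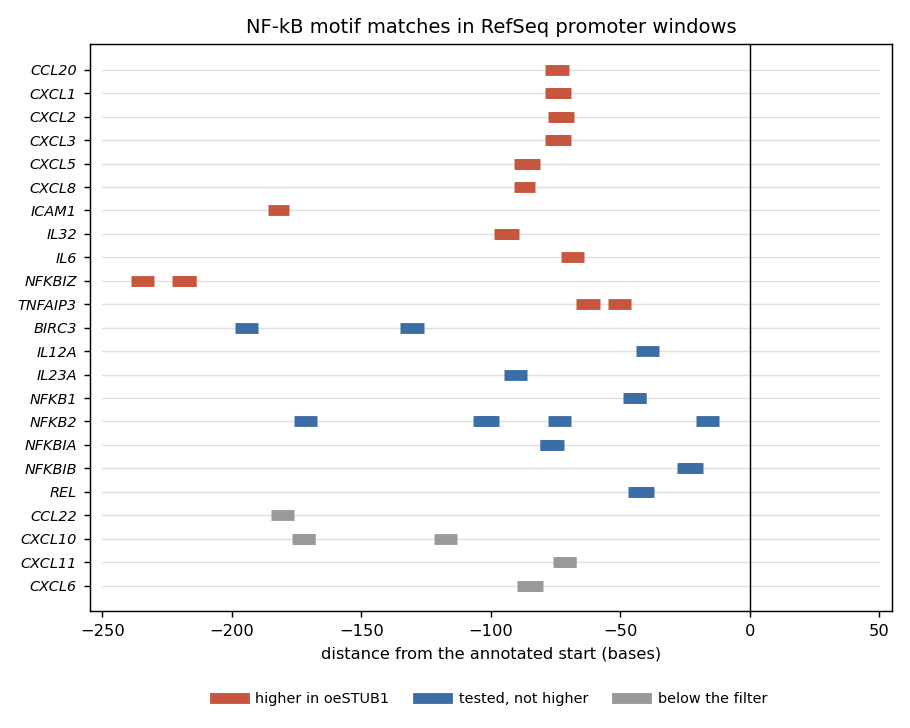
Position of each NF-kB motif match (thick bar) in the RefSeq promoter window (grey line) of the members that held one, in bases from the annotated start (vertical line). Red marks members higher in oeSTUB1, blue other tested members and grey members below the filter. A gene with several annotated starts is drawn from each, and the matches of CXCL1, CXCL2, CXCL3, CXCL5 and CXCL8 lie between 91 and 68 bases before the start.

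Members from 7 of the 8 role groups were called higher in the cells overexpressing STUB1. Of the 67 members, 36 reached a mean of 0.1 FPKM over the 6 libraries and were tested with limma on log2(FPKM + 0.1), and a gene was called at a Benjamini-Hochberg adjusted p under 0.05 over all 15353 genes tested. Of the 36, 19 were called higher in oeSTUB1 (52.8%) and 2 lower. Over all tested genes 7.01% were called higher and 6.59% lower. The median log2 fold change of the 36 was 0.78, and that of all tested genes was 0.02. The 3 libraries of oeSTUB1 all lay above the 3 of oeNC for 23 members and all below for 3, against 21.5% and 17.3% of all tested genes. A member that is nearly silent in 1 group passes the filter only through the other, so its difference is partly set by the filter. This was the case for CSF3, IL6, IL1B and CX3CL1. The other 32 held 17 higher and 1 lower call, with a median of 0.74. The member counts also moved with the libraries. They were 17 higher and 0 lower without oeNC replicate 3, and 24 higher and 3 lower without oeSTUB1 replicate 2. The counts over all genes moved too. They went from 1076 higher and 1012 lower to 563 and 473 without oeNC replicate 3. Without oeSTUB1 replicate 2 they were 2273 and 1845. A member that passed only without oeSTUB1 replicate 2 thus did so in a run with more calls over all genes.

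**Figure D2:**
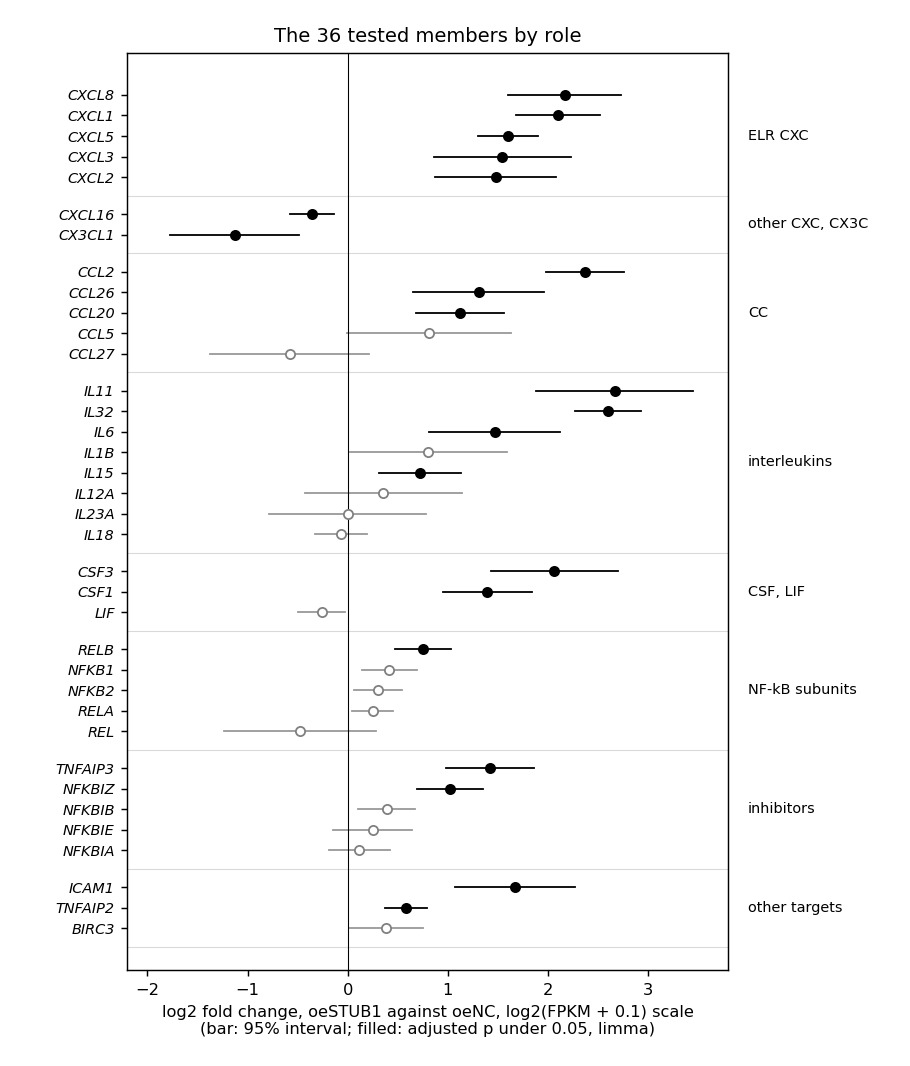
Log2 fold change of oeSTUB1 against oeNC on the log2(FPKM + 0.1) scale for the 36 tested members, grouped by role, with 95% intervals from limma (3 libraries a group). Filled points have an adjusted p under 0.05, and they include all 5 tested ELR chemokines, while among the 5 NF-kB subunits RELB alone is filled.

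The ELR chemokines, which attract neutrophils through the receptors CXCR1 and CXCR2, were higher together. All 5 tested members passed the test. CXCL5, the most abundant chemokine here, measured 69.6, 71.2 and 81.4 FPKM in oeNC and 192, 221 and 266 FPKM in oeSTUB1. Every oeSTUB1 library lay above every oeNC library, and the log2 fold change was 1.60 (SE 0.13, adjusted p = 0.000335). CXCL1 measured 13.1, 12.8 and 17.0 FPKM in oeNC and 46.5, 69.1 and 71.1 FPKM in oeSTUB1. The groups were well apart, with a log2 fold change of 2.101 (SE 0.18, adjusted p = 0.000443). CXCL8, also called interleukin-8 and the classic neutrophil attractant, measured 5.87, 6.35 and 10.9 FPKM in oeNC and 26.4, 37.2 and 38.8 FPKM in oeSTUB1. It had the highest log2 fold change of the 5, at 2.17 (SE 0.24, adjusted p = 0.00132).

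CXCL2 and CXCL3 are close relatives of CXCL1 and were lower in level. CXCL2 measured 4.47, 4.79 and 8.93 FPKM in oeNC and 13.1, 17.1 and 19.1 FPKM in oeSTUB1. CXCL3 measured 4.64, 4.08 and 9.47 FPKM in oeNC and 13.7, 17.95 and 18.8 FPKM in oeSTUB1. In both, oeNC replicate 3 stood well above the other oeNC libraries, and the groups still did not overlap. The log2 fold changes were 1.48 (SE 0.26, adjusted p = 0.00957) for CXCL2 and 1.55 (SE 0.29, adjusted p = 0.013) for CXCL3. CXCL3 missed the threshold when oeNC replicate 1 was left out (adjusted p = 0.0554). Reads of these 3 genes can be divided among them wrongly. Of the 50-base words in their transcripts, 12.5% for CXCL2, 6.01% for CXCL3 and 4.81% for CXCL1 also occur in another gene, in each case one of the other two. CXCL6 gave 1 fragment in oeNC replicate 2 and none elsewhere, and was not tested. Summed over the 6 ELR members the level was 97.7, 99.3 and 128 FPKM in oeNC and 292, 363 and 413 FPKM in oeSTUB1. CXCL5 supplied 61.0% to 71.8% of that sum in every library.

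The 6 ELR members lie in a cluster on chromosome 4 (GRCh38, chr4:73740506-74099293 with GENCODE 29) that also holds PF4 and PPBP, which are not members. The order is CXCL8, CXCL6, CXCL1, PF4, PPBP, CXCL5, CXCL3 and CXCL2. PPBP, a platelet chemokine that is not a member and was picked after its values were seen, gave 4, 2 and 1 fragments in oeNC and 9, 12 and 8 in oeSTUB1. The ratio of fragments per total was 4.32 (exact 95% interval 1.85 to 11.7, counting error only). With a mean of 0.0511 FPKM in oeNC and 0.219 in oeSTUB1 it passed the filter through oeSTUB1 alone, so no test is drawn on. Within 2 Mb on either side of the cluster 16 of 27 listed genes were tested, of which 1 was called higher and 1 lower, with a median log2 fold change of -0.03. Those 2 neighbours, also named after their values were seen, were BTC, a ligand of the EGF receptor, at 0.75 (adjusted p = 0.0488) and PARM1 at -1.92 (adjusted p = 0.00171). Between CXCL2 and BTC the tested genes were positive and not called. They were MTHFD2L at 0.40 (adjusted p = 0.0744), EREG at 0.60 (adjusted p = 0.0627) and AREG at 0.41 (adjusted p = 0.0839). At the CXCL8 end the nearest tested gene, RASSF6, was at -0.54 (adjusted p = 0.157).

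**Figure D3:**
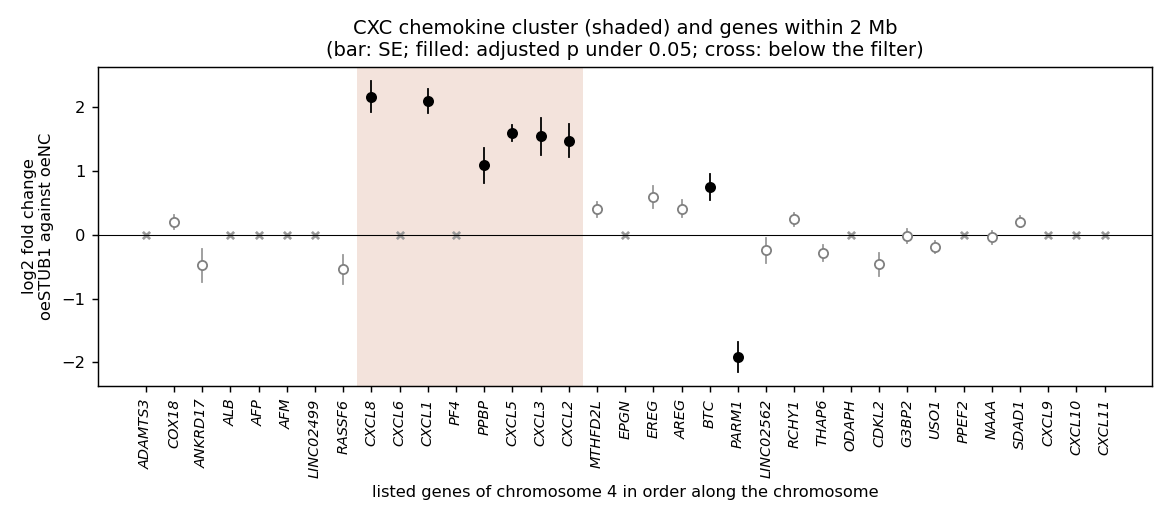
Log2 fold change (bar: SE) of oeSTUB1 against oeNC for the listed genes of the chromosome 4 chemokine cluster (shaded) and within 2 Mb, in chromosome order, not to scale in distance. Filled points have an adjusted p under 0.05 and crosses are genes below the filter, drawn at 0. The 5 tested ELR members inside the shading lie at 1.48 to 2.17, PPBP is drawn at 1.09 although it passed the filter through oeSTUB1 alone, and outside the shading BTC and PARM1 alone are filled.

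Of the 9 other CXC and CX3C chemokines listed, 2 were tested, and both were called lower. CXCL16 is made as a membrane-bound protein and binds CXCR6. It measured 7.45, 7.80 and 7.64 FPKM in oeNC and 5.39, 5.996 and 6.46 FPKM in oeSTUB1. The groups did not overlap and the difference was small, with a log2 fold change of -0.36 (SE 0.09, adjusted p = 0.0449). CX3CL1, or fractalkine, is also membrane-bound and draws cells with the receptor CX3CR1. It measured 0.193, 0.167 and 0.315 FPKM in oeNC and 0.0618, 0.0184 and 0.0624 FPKM in oeSTUB1, from 19 to 38 fragments a library and from 2 to 7. The ratio of fragments per total was 0.211 (exact 95% interval 0.115 to 0.365, counting error only), with a log2 fold change of -1.13 (SE 0.28, adjusted p = 0.0351). CX3CL1 passed the filter through oeNC alone, and neither call was firm. CXCL16 lost it in 8 of 15 alternatives and CX3CL1 in 7 of 14, with adjusted p-values up to 0.178 and 0.132. The interferon-induced CXCL9, CXCL10 and CXCL11, which attract T cells, gave at most 3 fragments in any library and were not tested.

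Of the 13 CC chemokines listed, 5 were tested and 3 were called higher. CCL2, the main monocyte attractant, measured 5.33, 5.22 and 7.64 FPKM in oeNC and 27.1, 36.3 and 31.0 FPKM in oeSTUB1. The groups were several-fold apart, with a log2 fold change of 2.37 (SE 0.17, adjusted p = 0.000198). CCL20, the ligand of CCR6 on dendritic and Th17 cells, measured 5.36, 4.91 and 7.28 FPKM in oeNC and 9.92, 14.4 and 14.2 FPKM in oeSTUB1. Its groups did not overlap either, and its log2 fold change was 1.12 (SE 0.19, adjusted p = 0.00778). CCL26, or eotaxin-3, an eosinophil attractant, measured 0.833, 0.750 and 0.393 FPKM in oeNC and 1.26, 1.88 and 2.11 FPKM in oeSTUB1, from 10 to 50 fragments a library. Here oeNC replicate 3 was the lowest library, unlike in the ELR genes. The log2 fold change was 1.31 (SE 0.28, adjusted p = 0.0218), and the call was lost without oeNC replicate 2, oeNC replicate 3 or oeSTUB1 replicate 3, and without the filter on low values, with adjusted p up to 0.0671. CCL5 and CCL27 were tested at 1 to 11 fragments a library and were not called, and their groups overlapped. CCL5 passed without oeSTUB1 replicate 2 (log2 fold change 1.09, adjusted p = 0.0479). At least 97.7% of the exonic bases of CCL27 lie within other genes, so its value is uncertain. The other 8 CC chemokines were below the filter.

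**Figure D4:**
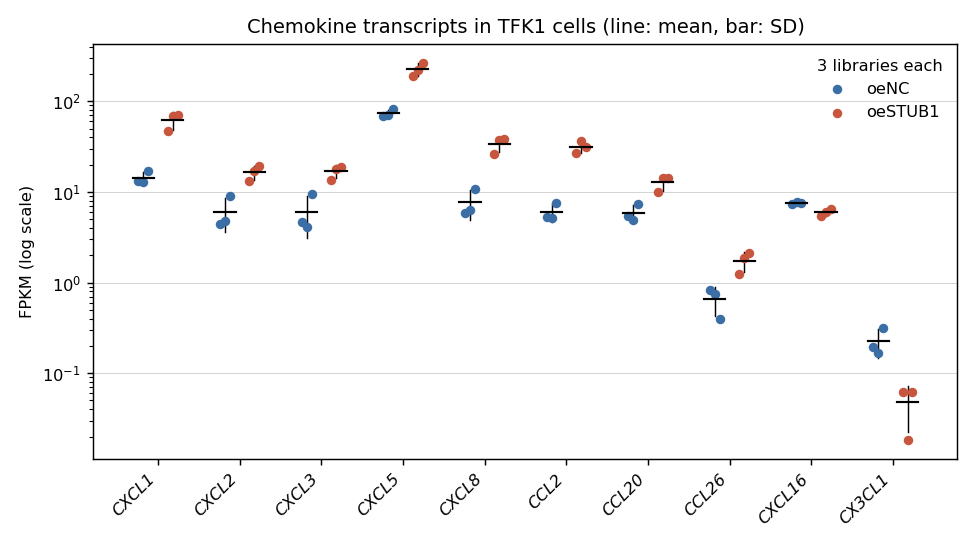
FPKM (log axis) of the 10 chemokines called between the groups, each point 1 library (blue oeNC, red oeSTUB1), with the group mean (line) and SD (bar), n = 3 a group. CXCL5 is the highest, at 69.6 to 266 FPKM, and CXCL16 and CX3CL1 are those with oeSTUB1 below oeNC.

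Among the 21 interleukins listed, 8 were tested and 4 were called higher. IL11, a cytokine of the interleukin-6 family that signals through gp130, measured 1.82, 1.54 and 0.996 FPKM in oeNC and 11.0, 13.9 and 5.59 FPKM in oeSTUB1. Replicate 3 was the lowest library of each group, and the groups remained apart, with a log2 fold change of 2.67 (SE 0.34, adjusted p = 0.00233). IL32, an intracellular and secreted inducer of other cytokines, measured 1.18, 1.34 and 1.69 FPKM in oeNC and 9.14, 9.61 and 8.17 FPKM in oeSTUB1. Its libraries were tight within each group, and it had the lowest adjusted p of the members (log2 fold change 2.60, SE 0.14, adjusted p = 7.88e-05). IL15, which sustains natural killer and memory T cells, measured 3.72, 4.75 and 4.82 FPKM in oeNC and 6.12, 9.44 and 6.82 FPKM in oeSTUB1. Its log2 fold change of 0.72 (SE 0.18, adjusted p = 0.0339) lost its call in 6 of 15 alternatives, among them the omission of any oeNC library or of oeSTUB1 replicate 3 (adjusted p up to 0.124).

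IL6, the inflammatory cytokine that drives the acute phase response, was scarce. It gave 0, 0 and 6 fragments in oeNC and 28, 18 and 23 in oeSTUB1, or 0, 0 and 0.0533 FPKM against 0.265, 0.178 and 0.220 FPKM. The groups did not overlap, and the ratio of fragments per total was 11.995 (exact 95% interval 5.24 to 33.8, counting error only). The log2 fold change was 1.47 (SE 0.28, adjusted p = 0.0134) on a scale where the added 0.1 FPKM shrinks it. Of the 6 runs with 1 library left out, IL6 could be fitted in 4 and was called in 2. It missed the threshold without oeNC replicate 1 or replicate 2 (adjusted p up to 0.0587). Without oeSTUB1 replicate 1 or replicate 3 it fell below the filter. IL6 passed the filter through oeSTUB1 alone, so its call is partly set by the filter. Exons of other genes on the opposite strand cover at least 20.7% of the exonic bases of IL6. Whether reads were counted by strand is not given in the sources used here. IL18, the most abundant interleukin and one stored as an inactive precursor in epithelia, measured 56.2, 54.98 and 59.0 FPKM in oeNC and 48.2, 63.9 and 51.2 FPKM in oeSTUB1. Its groups overlapped, and the log2 fold change of -0.07 (SE 0.11, adjusted p = 0.719) had a 95% interval of -0.33 to 0.19. Without oeSTUB1 replicate 2, its highest library, IL18 was called lower (log2 fold change -0.19, adjusted p = 0.0305). IL1B, IL12A and IL23A were tested at 2 to 33 fragments a library, overlapped between groups and were not called. IL1A, below the filter, gave 1, 0 and 0 fragments in oeNC and 13, 6 and 9 in oeSTUB1. The remaining 12 interleukins below the filter had at most 27 fragments in any library.

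Of the colony-stimulating factors, LIF and TNF, 3 of 5 were tested. CSF1, the growth factor of macrophages, measured 2.45, 2.73 and 3.60 FPKM in oeNC and 6.66, 7.07 and 9.98 FPKM in oeSTUB1. Each oeSTUB1 library exceeded each oeNC library, with a log2 fold change of 1.40 (SE 0.19, adjusted p = 0.00313). CSF3, or G-CSF, which drives neutrophil production, gave 2, 2 and 3 fragments in oeNC and 18, 24 and 38 in oeSTUB1. These are 0.0381, 0.0381 and 0.0540 FPKM against 0.345, 0.479 and 0.735 FPKM. Every oeNC library was at or under 3 fragments, so the size is best read from the ratio of fragments per total. It was 11.9 (exact 95% interval 5.53 to 30.6, counting error only). CSF3 passed the filter through oeSTUB1 alone, so its fitted log2 fold change of 2.07 (SE 0.27, adjusted p = 0.00271) is partly set by the filter. LIF, another ligand that signals through gp130 and the most abundant of these genes, measured 27.0, 26.9 and 33.8 FPKM in oeNC and 24.1, 24.3 and 24.5 FPKM in oeSTUB1. All oeSTUB1 libraries lay just below the oeNC libraries, and the log2 fold change of -0.26 (SE 0.10, adjusted p = 0.135) was not called. TNF gave 0, 0 and 8 fragments in oeNC and 5, 7 and 5 in oeSTUB1, so the groups overlapped. Its mean of 0.0716 FPKM was below the filter, so it was not tested. CSF2 gave 1 fragment in all.

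All 5 NF-kB subunits were tested, and 1 was called higher. This was RELB, the partner of NFKB2 in the non-canonical route. It measured 3.60, 4.30 and 4.39 FPKM in oeNC and 6.90, 7.77 and 6.29 FPKM in oeSTUB1. The groups did not overlap, and the log2 fold change was 0.76 (SE 0.12, adjusted p = 0.00605). RELA, the main transactivating subunit of the canonical route and the most abundant, measured 24.1, 23.2 and 26.7 FPKM in oeNC and 31.5, 28.9 and 27.7 FPKM in oeSTUB1. The oeSTUB1 libraries were all above, but by less than the test required (log2 fold change 0.25, SE 0.09, adjusted p = 0.104). NFKB1 (log2 fold change 0.42, adjusted p = 0.0543) and NFKB2 (0.30, adjusted p = 0.0902) were likewise higher in every oeSTUB1 library and not called. NFKB1 passed under quantile normalization, under limma-voom on the recovered fragments and without oeSTUB1 replicate 2, with adjusted p as low as 0.00411, and RELA passed without oeSTUB1 replicate 2 (adjusted p = 0.048). REL measured 3.08, 3.39 and 3.67 FPKM in oeNC and 3.41, 1.28 and 3.13 FPKM in oeSTUB1. Its log2 fold change of -0.47 (SE 0.33, adjusted p = 0.376) came with oeSTUB1 replicate 2 far below the other libraries, and 43.3% of its exonic bases overlap another gene on the same strand.

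The inhibitors split. TNFAIP3, or A20, a ubiquitin-editing enzyme that ends NF-kB signalling, measured 1.07, 1.24 and 1.54 FPKM in oeNC and 3.73, 2.83 and 4.31 FPKM in oeSTUB1. No library crossed between the groups, with a log2 fold change of 1.42 (SE 0.19, adjusted p = 0.00279). NFKBIZ encodes IkB-zeta, a nuclear protein that, unlike the classical inhibitors, also helps to switch on genes such as IL6 and LCN2. It measured 1.77, 2.11 and 2.49 FPKM in oeNC and 4.34, 4.06 and 4.79 FPKM in oeSTUB1, a log2 fold change of 1.03 (SE 0.14, adjusted p = 0.00332) with no overlap. NFKBIA, the classical inhibitor and the most abundant, measured 34.8, 34.3 and 41.6 FPKM in oeNC and 33.5, 45.4 and 41.6 FPKM in oeSTUB1. Its groups overlapped, and the log2 fold change of 0.12 (SE 0.13, adjusted p = 0.598) had a 95% interval of -0.19 to 0.42. NFKBIB (log2 fold change 0.39, adjusted p = 0.0766) and NFKBIE (0.25, adjusted p = 0.373) were not called, although the 3 oeSTUB1 libraries of NFKBIB lay above oeNC, and NFKBIB passed without oeSTUB1 replicate 2 (adjusted p = 0.0401).

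Of the 3 further target genes, 2 were called higher. TNFAIP2, a cytosolic protein induced by TNF, was among the most abundant members and measured 62.0, 64.2 and 67.6 FPKM in oeNC and 92.6, 91.0 and 108 FPKM in oeSTUB1. All oeSTUB1 libraries were higher, with a log2 fold change of 0.59 (SE 0.09, adjusted p = 0.00544). ICAM1, the adhesion molecule bound by leukocyte integrins, measured 0.437, 0.292 and 0.587 FPKM in oeNC and 1.43, 1.29 and 2.101 FPKM in oeSTUB1. Its log2 fold change was 1.67 (SE 0.26, adjusted p = 0.00524), again without overlap, and genes on the opposite strand cover at least 22.0% of its exonic bases. BIRC3, an inhibitor of apoptosis that acts as a ubiquitin ligase in TNF receptor complexes, had a log2 fold change of 0.38 (SE 0.16, adjusted p = 0.159) and overlapping groups. It passed without oeSTUB1 replicate 2 (adjusted p = 0.0228).

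**Figure D5:**
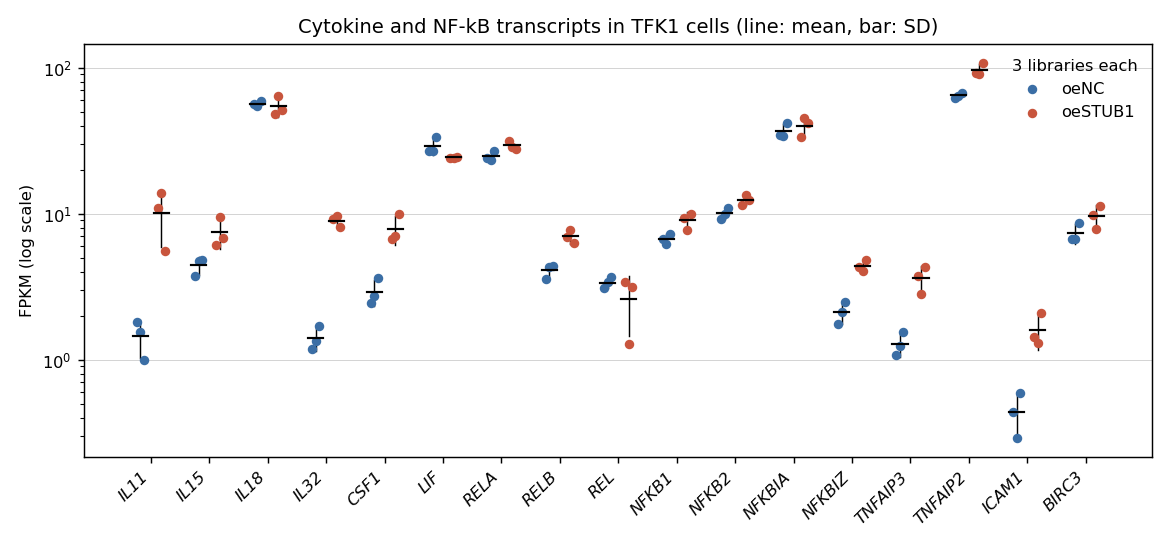
FPKM (log axis) of 17 interleukins, growth factors, NF-kB subunits, inhibitors and further targets, each point 1 library (blue oeNC, red oeSTUB1), with the group mean (line) and SD (bar), n = 3 a group. IL11, IL32, CSF1, TNFAIP3 and ICAM1 stand apart between the groups, while NFKBIA, at 33.5 to 45.4 FPKM, overlaps, and 1 oeSTUB1 library of REL lies at 1.28 FPKM.

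The libraries of a group did not share the members evenly. Replicate 3 was the highest oeNC library for 30 of the 36 tested members (83.3%), against 42.9% of all tested genes. Replicate 3 was also the highest oeSTUB1 library for 18 of the 36 (50%), against 27.5% of all tested genes. The members thus tended to share their highest library and are not independent observations, and the part of this in the counts of calls was not tested beyond leaving each library out. Without oeNC replicate 3 the log2 fold changes were larger for CXCL2, CXCL3 and CXCL8, at 1.79, 1.91 and 2.44. Of the 21 called members, 15 kept their call in every alternative run in which they could be fitted. Those 15 were CXCL1, CXCL2, CXCL5, CXCL8, CCL2, CCL20, IL11, IL32, CSF1, CSF3, RELB, NFKBIZ, TNFAIP3, TNFAIP2 and ICAM1. Among them CSF3 passed the filter through oeSTUB1 alone, so its call is partly set by the filter. It could not be fitted with a filter at 1 FPKM.

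Further lists of the same route give the setting of the members. Of 54 listed receptors for chemokines and cytokines, 34 were tested, 2 were called higher and 4 lower, with a median log2 fold change of 0.09. The called share of 17.6% was near the 13.6% of all tested genes. IL6R, the ligand-binding chain for interleukin-6, measured 2.54, 2.77 and 2.63 FPKM in oeNC and 1.71, 1.03 and 1.80 FPKM in oeSTUB1. Its log2 fold change was -0.80 (SE 0.20, adjusted p = 0.0365), with no overlap. IL22RA1, the epithelial receptor chain for interleukin-22, measured 2.45, 2.53 and 2.89 FPKM in oeNC and 1.36, 1.39 and 1.65 FPKM in oeSTUB1. It was also lower in every oeSTUB1 library, at -0.80 (SE 0.13, adjusted p = 0.00646). IL17RB, a receptor for interleukin-25, measured 0.772, 1.02 and 0.702 FPKM in oeNC and 1.58, 1.59 and 1.205 FPKM in oeSTUB1. It was higher without overlap, at 0.75 (SE 0.18, adjusted p = 0.0328).

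Of 44 listed adaptors, kinases and regulators of NF-kB signalling, 40 were tested, 4 were called higher and 2 lower, with a median of 0.08. Their called share of 15% was also near the 13.6% of all tested genes. IRAK1 and IRAK2, kinases downstream of the interleukin-1 and Toll-like receptors, were both higher. IRAK2 measured 1.81, 1.64 and 1.98 FPKM in oeNC and 3.59, 2.95 and 4.17 FPKM in oeSTUB1 (log2 fold change 0.93, SE 0.15, adjusted p = 0.00623). IRAK1 measured 33.7, 32.4 and 33.7 FPKM in oeNC and 48.5, 48.7 and 46.8 FPKM in oeSTUB1 (log2 fold change 0.53, SE 0.07, adjusted p = 0.00244). RIPK2, the kinase of the NOD receptors, was lower, with 29.7, 29.4 and 29.6 FPKM in oeNC and 19.3, 20.4 and 19.2 FPKM in oeSTUB1 (log2 fold change -0.59, SE 0.07, adjusted p = 0.00165). None of these 3 genes had overlapping groups.

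A last list held 25 further known NF-kB targets. Of these 23 were tested, 8 were called higher and none lower, a share of 34.8% against 7.01% of all tested genes, with a median log2 fold change of 0.27. The oeSTUB1 libraries all lay above oeNC for 12 of the 23 and all below for 3, against 21.5% and 17.3% of all tested genes. Like the other lists, it was set with earlier results of these data known, so its share is no independent check on the members. BCL2A1, an anti-apoptotic relative of BCL2, gave 3, 21 and 21 fragments in oeNC and 91, 127 and 71 in oeSTUB1. Its log2 fold change was 2.74 (SE 0.52, 95% interval 1.54 to 3.95, adjusted p = 0.0127). The ratio of fragments per total was 6.70 (exact 95% interval 4.88 to 9.39, counting error only), which leaves out the spread between the oeNC libraries. SAA1, an acute phase protein, measured 0.607, 0.477 and 1.15 FPKM in oeNC and 2.14, 2.77 and 3.56 FPKM in oeSTUB1. Its groups were apart, with a log2 fold change of 1.84 (SE 0.30, adjusted p = 0.00684). LCN2, an iron-scavenging protein of inflamed epithelia and a target of IkB-zeta, measured 8.08, 9.64 and 13.8 FPKM in oeNC and 25.7, 30.7 and 53.3 FPKM in oeSTUB1, a log2 fold change of 1.75 (SE 0.29, adjusted p = 0.00684). As in the 5 tested ELR chemokines, oeNC replicate 3 was the highest control library of LCN2, and it still lay below all oeSTUB1 libraries.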

How the data were processed

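Total RNA of 6 TFK1 libraries (3 oeNC, 3 oeSTUB1) was extracted with TRIzol and prepared with the VAHTS Universal V6 kit. The submitters' processing notes name fastp 0.20.1, HISAT2 2.1.0, HTSeq 0.11.2, R 3.2.0, DESeq2 1.22.2 and GRCh38.p13. The annotation and the strand setting of the counting are not given in the sources used here. The authors deposited 1 table of FPKM values for all libraries. FPKM is not a count, so genes averaging 0.1 FPKM or more over the 6 libraries were tested with limma 3.58.1 (R 4.3.3), lmFit and eBayes with trend, two-sided, on log2(FPKM + 0.1), with Benjamini-Hochberg adjustment over all 15353 genes. The added 0.1 understates the fold change of low genes. Whole fragments were recovered from the FPKM steps, to within 4.9e-06 FPKM for all 23569 genes. They may be too low by a common divisor for single genes, and they served for limma-voom, for ratios per total with exact (Clopper-Pearson) 95% intervals and for a floor of 3 fragments. Intervals cover counting error only.

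The procedure was tested on simulated data for oeSTUB1 against oeNC with 15355 genes tested. Of 100 genes changed 2-fold, 79 were called with the right sign, and of 100 changed 4-fold, 100. Of the unchanged genes 14 were called. The changed genes were drawn from those averaging 1 FPKM or more, so the detection rates do not cover lower genes. All genes had the same simulated dispersion and the libraries varied independently, so no rate covers libraries in which genes vary together. Alternatives changed the pseudocount, the filter, the scaling, the trend, the model and the libraries included. Over all tested genes same-numbered libraries did not deviate together, so no pairing was used. Among the 36 tested members replicate 3 was most often the highest library in both groups (30 in oeNC, 18 in oeSTUB1). Values per library were given for called members and for the most abundant member of each role, and for the 3 called genes with the largest change in each further list. Members and lists were chosen with earlier results of these data known. Gene positions came from GENCODE 29 and promoter sequences from RefSeq (GRCh38.p14). Figures were drawn with matplotlib 3.10.9.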

Additional observations from a re-analysis of the deposited data

How the results depend on the processing

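Of the 21 called members, none changed direction in the alternatives in which it could be fitted (12 for IL6, 14 for CSF3 and CX3CL1 and 15 for the others), and 15 kept their call in all of them. The count of members called higher (19) lay between 16 and 24 when 1 library was left out. The count called lower (2) was 1 with a pseudocount of 1, without the filter on low values, with a filter at 1 FPKM, without the trend and under limma-voom, and it was 0 to 3 with 1 library left out. With the replicate number as a block it was 0, beside 19 higher. Numbers were not taken as pairs, since over all tested genes the deviations of same-numbered libraries correlated at -0.05, -0.05 and 0.06. For the members alone these correlations were not computed. The block also lowered the count of called genes of the further lists that were lower from 6 to 2, as did the absence of a filter. With 1 library left out, the called genes of those lists numbered 10 to 31 (main 20), the higher 8 to 23 (main 14) and the lower 2 to 8 (main 6). Over all genes the count of 2088 became 953, 927 and 1036 without oeNC replicates 1, 2 and 3 and 4118 without oeSTUB1 replicate 2, with 474 to 2273 higher (main 1076) and 453 to 1845 lower (main 1012). The cause was not tested. Leaving out a library also leaves fewer samples. Uncalled members whose value changed sign were IL18, at -0.19 to 0.0124 with 1 library left out (above 0 without oeSTUB1 replicate 1, called lower at -0.19 without oeSTUB1 replicate 2, adjusted p = 0.0305), and IL23A, at 0.0158 with a pseudocount of 1, 0.0403 under quantile normalization and -0.37 to 0.18 with 1 library left out. Other scalings moved the median of all genes by less than 0.1 on the log2 scale. Depth limits the 31 members below the filter, of which 21 had at most 3 fragments in every library, and IL6, CSF3, IL1B and CX3CL1, which rest on few fragments in 1 group.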
